A study of Arabidopsis thaliana with 4 samples.

Results

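The genes described here are those whose signal was at least 2-fold lower in 35S:AtRALF1 seedlings than in control seedlings in each of 2 repeats. They were chosen by that difference itself: 35S:AtRALF1 minus control was -1 or less on the log2(signal + 16) scale in the first repeat and again in the second, with signals below 1 set to 1. Of 22746 probe sets on the Affymetrix Arabidopsis array, 55 met the rule (0.242%), while 68 were at least 2-fold higher by the same rule turned round. A probe set is a group of short probes for a transcript, read together as 1 signal intensity. The fold is thus on the scale with the offset, and all differences are on this log2 scale. Since the members were selected on this contrast, their lower signal in 35S:AtRALF1 is a description and is given without a test.

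The 4 arrays were hybridised, 1 per sample, with RNA from whole seedlings at 1 week of age. The 35S:AtRALF1 samples carried the AtRALF1 coding sequence, which the labels call AtRALF1-1, under the cauliflower mosaic virus 35S promoter, which is active in nearly all plant tissues, and each combined equal RNA of 2 transgenic lines, I and II. The control samples combined equal RNA of the wild type and of wild type carrying the empty vector pART27. A cold treatment of 48 h came before growth. All seedlings then grew upright on plates, many to a plate and pooled, at 24 °C with a 16 h day. Both groups were measured in a first and a second repeat. Whether the repeats came from separate plantings is not told by the labels, so the spread between them may be technical. The level of AtRALF1 itself was not analysed here, as it is not among the genes named in the probe table, and with mixed lines no single line can be read out. In whole seedlings, fewer cells of a type and less RNA per cell cannot be told apart.

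RALF peptides are small secreted signals that raise the pH outside the cell and restrain cell expansion, and AtRALF1 is a root-expressed form of Arabidopsis. The lowered set touches several other pathways of seedlings. Flavonols, pigments and antioxidants of the epidermis, are built from phenylpropanoid precursors by chalcone synthase and chalcone isomerase and are then stored as sugar conjugates made by UDP-glycosyltransferases. Jasmonate, a lipid hormone of wounding and defence, acts through the related transcription factors MYC2, MYC3 and MYC4. Chloroplasts keep a small genome of their own, in which ribosomal protein genes lie side by side in a long cluster.

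The probe table gave 1 gene for 27 of the 55 members, several genes for 1 and none for 27. The named share, 49.1%, compares with 59.4% of all probe sets. Of the 27 named members, 26 were protein-coding genes and 1, AT2G38520, was a pseudogene. They were 7 of the 3451 probe sets with 1 gene on chromosome 1, 5 of 2200 on chromosome 2 and 4 of 2746 on chromosome 3. The other named members were 5 of 1962 on chromosome 4, 5 of 3008 on chromosome 5 and 1 of 69 on the plastid genome. Probe sets marked as shared between similar transcripts made up 5 members (9.09%, against 4.66% of all probe sets), and these may read more than 1 gene.

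The mean difference over both repeats had a median of -1.31 among the members and ranged from -2.50 to -1.07, against a median of -0.04 over all probe sets. The median was -1.26 in the first repeat and -1.31 in the second. The fall was larger in the second repeat for 39 members and in the first for 16. In 29 members the repeats differed by less than 0.25, and in 5 they differed by 1 or more. Over all probe sets 521 were at least 2-fold lower in the first repeat and 752 in the second, so the members are the overlap of those lists, 10.6% of the first and 7.31% of the second. Across all probe sets limma, a linear model that moderates each probe set's spread, called none lower in 35S:AtRALF1 at an adjusted p under 0.05 (0.00%), with 522 lower and 458 higher at an unadjusted p under 0.05. That balance turned with the scaling, to 433 lower and 542 higher after quantile and 434 lower and 545 higher after cyclic loess normalization.

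**Figure D1:**
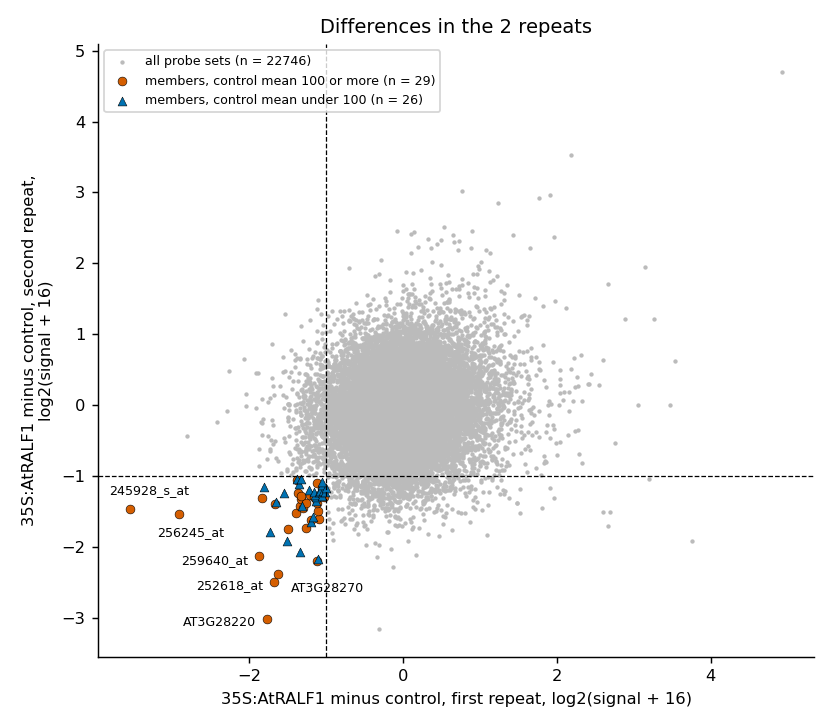
Each point is a probe set, with its 35S:AtRALF1 minus control difference on the log2(signal + 16) scale in the first repeat on the horizontal axis and in the second on the vertical axis. Dashed lines mark the rule's limit of -1; the 55 members fill the lower left corner, with 29 of higher control signal as circles and 26 of lower control signal as triangles.

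The members fell into brighter and dimmer ones, and most of the named genes were dim. With a mean control signal of 100 as the line between them, a value set after the signals had been seen, 29 members were bright and 26 dim. The bright members had a median signal of 157.2 and 83.5 in the 35S:AtRALF1 arrays, against 498 and 329 in the control arrays. The dim members had a median of 7.05 and 6.2 in the 35S:AtRALF1 arrays, against 44.15 and 41.7 in the control arrays. In 25 of the 26 dim members both 35S:AtRALF1 signals lay under the 40th percentile of their array, which was 32 and 28.5. No detection calls were used, so how far below the control such a gene lies was not measured. Named genes made up 11 of the bright members and 16 of the dim ones. A probe set could meet the rule only with a control signal of 18 or more in both arrays, and of the 15485 with that signal the members were 0.355%. The offset of 16 weighs most on dim genes. With 64 in its place 14 bright members and no dim one met the rule, and with 1 in its place 497 probe sets met it, all 55 members among them.

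The largest falls with a gene name belonged to AT3G28220 and AT3G28270, which lie close together on chromosome 3. AT3G28220, of a family with a TRAF-like (MATH) domain, had signals of 420.1 and 54.2 in 35S:AtRALF1, against 1469.3 and 549.5 in control, a difference of -1.77 and -3.01 in the repeats. AT3G28270, of a family of membrane-associated proteins of unknown function (DUF677), had 150.8 and 285.3 in 35S:AtRALF1, against 498 and 1547.2 in control, a difference of -1.62 and -2.38. For both genes each 35S:AtRALF1 array lay below each control array, but between repeats they moved opposite ways, AT3G28220 being lower and AT3G28270 higher in the second repeat in both genotypes. They are 7 genes apart in the RefSeq order, the nearest pair of named members, the next being AT5G48210 and AT5G48570 at 53. Of the genes measured between them, AT3G28230 had 16.4 and 5.9 in 35S:AtRALF1 against 28 and 17.7 in control, and AT3G28240 was dim throughout, at 3.7 and 1 in 35S:AtRALF1 against 1.7 and 4.3 in control. On the far side of AT3G28220, AT3G28200 was at 296 and 456.4 in 35S:AtRALF1 against 304.3 and 387.8 in control, higher in the second repeat and slightly lower in the first.

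Flavonoid genes were represented by an early step and a late one. CHIL (AT5G05270), a chalcone isomerase-like protein that helps chalcone synthase make the flavonoid skeleton, had signals of 139.9 and 241.1 in 35S:AtRALF1, against 304.7 and 587 in control, a difference of -1.04 and -1.23. UGT78D1 (AT1G30530), which attaches rhamnose to the 3 position of flavonols, had 33.9 and 135.3 in 35S:AtRALF1, against 161.6 and 356.5 in control, a difference of -1.83 and -1.30. In both genes the 35S:AtRALF1 arrays stayed below the control arrays, and both were brighter in the second repeat whichever the genotype. Of 20 listed flavonoid genes 3 were matched by name to a probe set, called measured from here on, and the others may lie on probe sets without a name. All 3 were lower on the mean, and their median, -0.72, was the value of UGT78D2 alone. UGT78D1 was the 1 that met the rule, so its sign was fixed by the selection and nothing is read from the count. CHIL was not on that list. UGT78D2, which adds glucose to the same position, had 58.1 and 521.8 in 35S:AtRALF1, against 177.9 and 544.4 in control, so it was lower in the first repeat and nearly equal in the second. DFR, the reductase that leads on to anthocyanins, had 62.4 and 46.6 in 35S:AtRALF1, against 80.7 and 80.2 in control, short of the limit in both repeats.

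Other UDP-glycosyltransferases, enzymes that attach sugars to small molecules, lay on both sides of 0. AT3G29630, of this superfamily but without a UGT symbol, was a dim member, with 13.7 and 11.5 in 35S:AtRALF1 against 50.7 and 65.7 in control. Of 47 genes with a UGT symbol, UGT78D1 alone was at least 2-fold lower in both repeats and none was 2-fold higher, while 30 were lower on the mean and 17 higher, with a median of -0.12. Glutathione S-transferases gave a like picture. GSTU20 (AT1G78370), a tau-class enzyme of this detoxifying family, was the brightest named member, with 839.4 and 163.5 in 35S:AtRALF1, against 1843.9 and 447.6 in control. Its difference was -1.12 and -1.37, but the first 35S:AtRALF1 array was brighter than the second control array, so the genotypes overlapped. Among 11 tau-class genes GSTU20 alone met the rule, 6 were lower on the mean and 5 higher (median -0.02); GSTU16 had a mean difference of -0.81 and GSTU21, a dim gene, one of 0.93.

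**Figure D2:**
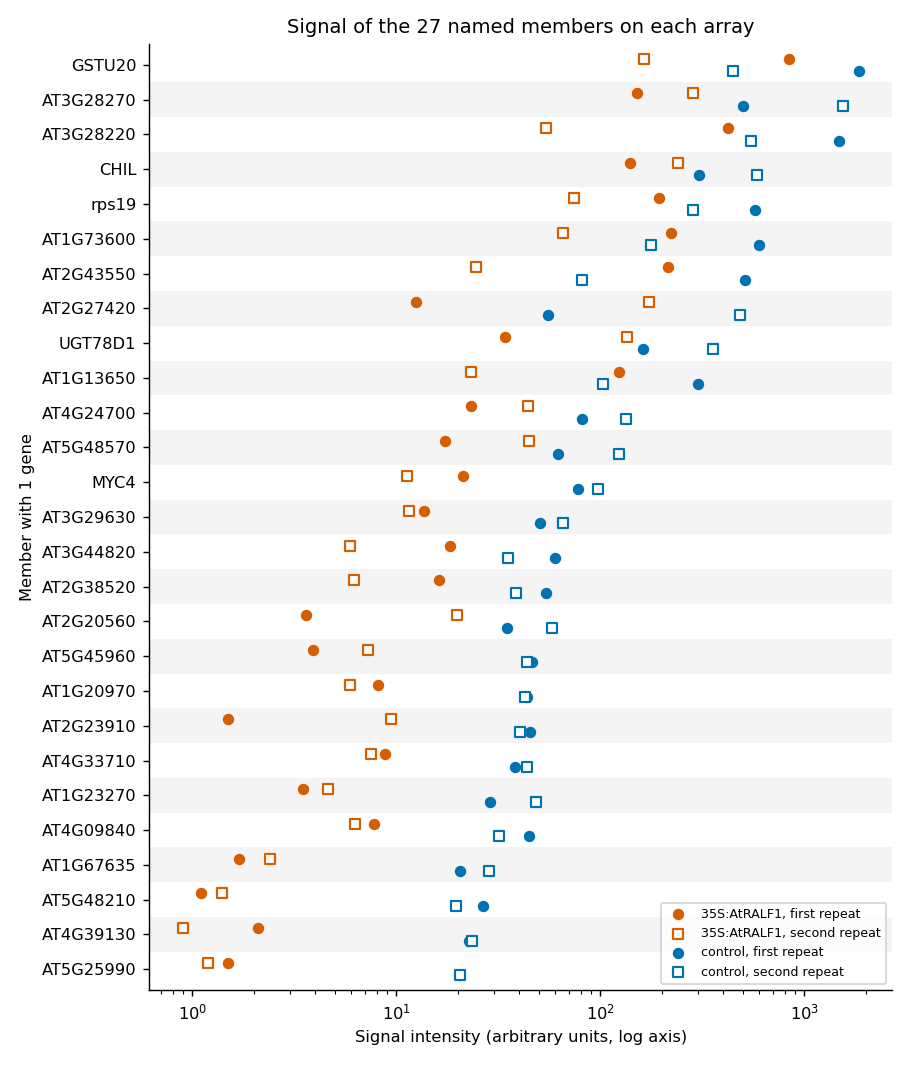
Signal intensity (log axis) of the 27 named members on each array, sorted by mean control signal, with 35S:AtRALF1 (orange) above control (blue) in each row, circles for the first repeat and open squares for the second. GSTU20 is at the top, and in the lower rows, from AT3G29630 down, all 35S:AtRALF1 signals are below 20.

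Among regulators and defence proteins, MYC4 (AT4G17880), a bHLH transcription factor of the jasmonate response, was a dim member. Its signals were 21.1 and 11.3 in 35S:AtRALF1, against 77.5 and 97.7 in control, a difference of -1.33 and -2.06, and the groups did not overlap. MYC3, its close relative, had 63.7 and 40.6 in 35S:AtRALF1, against 50.5 and 87 in control, so it was higher in the first repeat and lower in the second. AT2G43550, a small cysteine-rich protein of the defensin-like and trypsin inhibitor type, had 213.3 and 24.6 in 35S:AtRALF1, against 513.5 and 81.2 in control, a difference of -1.21 and -1.26 with overlapping groups. On one side of it, AT2G43530, AT2G43535 and AT2G43540 were higher in the first repeat (0.92, 0.58 and 0.51) and lower in the second (-0.39, -0.38 and -0.22). The adjoining AT2G43560 on the other side was lower in both, with -0.13 and -0.47. AT4G33710, of the CAP family that includes the pathogenesis-related protein PR-1, had 8.8 and 7.5 in 35S:AtRALF1, against 38.1 and 43.5 in control. The genes near it did not share this fall. AT4G33720 was dim throughout, at 5.5 and 4.1 in 35S:AtRALF1 against 7.1 and 2.7 in control. AT4G33730 was higher in both repeats, at 64.6 and 46.5 in 35S:AtRALF1 against 27 and 15.3 in control. On the other side AT4G33700 was lower by less, with differences of -0.06 and -0.41. None of the 5 measured genes of a list of 32 for jasmonate and ethylene defence was a member. Their median was -0.72, with 4 lower on the mean and 1 higher. The lower ones held LCR67, at 2.4 and 1.6 in 35S:AtRALF1 against 2.1 and 2.4 in control. The higher one was JMT, at 2.8 and 3.1 in 35S:AtRALF1 against 1.3 and 4.6 in control. Both were too faint to show a direction. The share of all probe sets lower on the mean was not counted, so no wider fall is read from these counts. PDF1.2, a plant defensin widely used as a marker of this response, had 15 and 51.3 in 35S:AtRALF1, against 15.9 and 187.7 in control. The related PDF1.2b, on a shared-probe set, had 21.5 and 29.2 in 35S:AtRALF1, against 30.5 and 384.8 in control. Both defensins were thus bright in a single array, the second control. THI2.1, a thionin, was dim on every array, and its mean difference of -0.72 was the median of the list.

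A pair of members encodes helpers of protein folding. AT5G48570 (ROF2, also FKBP65) is a heat-inducible FK506-binding peptidyl-prolyl isomerase, and its signal averaged 31.15 ± 19.4 in 35S:AtRALF1 and 92.4 ± 43.4 in control (SD, n = 2 each), a difference of -1.22 and -1.19. AT2G20560, a DnaJ (HSP40) type co-chaperone, had 3.6 and 19.9 in 35S:AtRALF1, against 34.7 and 57.7 in control, a difference of -1.37 and -1.04. Each was higher in the second repeat in both genotypes and neither overlapped. ROF2 was the 1 gene measured of 15 on a heat shock list, so the other heat shock genes were not analysed here.

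The member from the chloroplast genome was rps19, for a protein of the small ribosomal subunit, and the genes beside it were lower too. It had signals of 193.1 and 74 in 35S:AtRALF1, against 570.4 and 285.6 in control, a difference of -1.49 and -1.74 without overlap. The adjoining rpl22, for a protein of the large subunit, had 275.9 and 25 in 35S:AtRALF1, against 534.8 and 126.2 in control, and rps3 after it had 688.7 and 106.4 in 35S:AtRALF1, against 1067.8 and 339.1 in control. Both missed the limit in the first repeat, with differences of -0.92 and -0.62, and passed it in the second, with -1.79 and -1.54. Farther along the cluster, rpl16, rpl14 and rpl36 had mean differences of -0.67, -0.96 and -0.86. Of these, rpl14 was dim, at 4.5 and 1.2 in 35S:AtRALF1 against 15.1 and 27 in control. Of the plastid ribosomal protein genes measured, 7 of 8 rps genes (median -0.65) and 7 of 7 rpl genes (median -0.86) were lower on the mean, and rps19 alone met the rule. The rps count holds rps19 itself, and the rpl count holds rpl20, which was level (0.09 and -0.10). Over all probe sets the median was -0.04, and the share lower on the mean was not counted, so no wider fall is read from these counts.

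**Figure D3:**
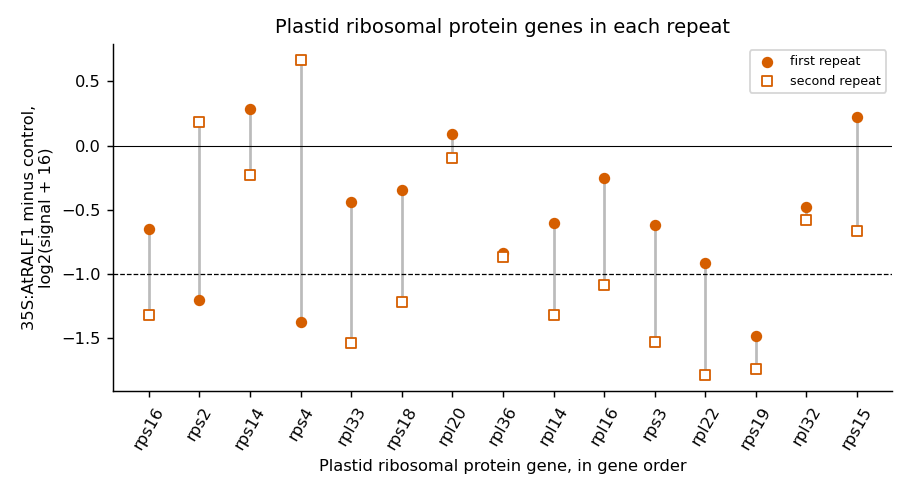
Difference between 35S:AtRALF1 and control on the log2(signal + 16) scale for 15 plastid ribosomal protein genes in their order on the plastid genome, with filled circles for the first repeat and open squares for the second. Only rps19 is below the dashed limit of -1 in both repeats; rps2 and rps4 are below it in the first repeat and above 0 in the second.

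The other bright named members were enzymes and genes without a role given here. AT1G73600, of the phosphoethanolamine N-methyltransferases that make the choline head group of membrane lipids, had 222.7 and 65.9 in 35S:AtRALF1, against 599.2 and 177.1 in control. AT2G27420, a papain-like cysteine protease, had 12.5 and 172.1 in 35S:AtRALF1, against 55.6 and 485.8 in control. The repeats were farther apart than the genotypes for both, in opposite directions, so their groups overlapped although each repeat gave a similar difference (-1.37 and -1.24 for AT1G73600, -1.33 and -1.42 for AT2G27420). AT1G13650 likewise overlapped, with 123.4 and 23.1 in 35S:AtRALF1 against 301.9 and 103.2 in control. AT4G24700 did not, with 23.2 and 44 in 35S:AtRALF1 against 81.7 and 132.9 in control and an almost equal fall in the repeats, -1.32 and -1.31.

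Further dim named members had signals under 20 in both 35S:AtRALF1 arrays. AT5G45960, a GDSL-type lipase, had 3.9 and 7.3 in 35S:AtRALF1, against 46.2 and 43.7 in control. The gene next to it, AT5G45950, is also of the GDSL type and was bright: it had 389.3 and 285.3 in 35S:AtRALF1, against 619 and 682.8 in control, a difference of -0.65 and -1.21, and so missed membership in the first repeat. AT2G23910, of a family of NAD(P)-binding reductases, had 1.5 and 9.4 in 35S:AtRALF1, against 45.1 and 40.3 in control. AT3G44820, of the NPH3 family known from phototropism, had 18.4 and 5.9 in 35S:AtRALF1, against 60.2 and 35.2 in control. None of these genes had overlapping groups. AT4G39130, of the dehydrins that accumulate in drying cells, was among the faintest, at 2.1 and 0.9 in 35S:AtRALF1 against 22.6 and 23.5 in control. Of 34 genes listed for abscisic acid and dehydration 4 were measured, none a member. All were lower on the mean (median -0.16), but in each the repeats went opposite ways. The differences were 0.28 and -0.54 for COR47, -0.52 and 0.13 for COR15B, -2.06 and 0.66 for COR15A, and 0.73 and -0.91 for LTI30. The remaining dim named members, AT1G20970, AT1G23270, AT1G67635, AT4G09840, AT5G25990, AT5G48210 and the pseudogene AT2G38520, are given no role here. Their signals ran between 1.1 and 16.1 in 35S:AtRALF1 and between 19.6 and 54 in control. AT1G20970, for example, was at 8.1 and 5.9 in 35S:AtRALF1 against 43.6 and 42.5 in control.

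Much of the brightest signal was on probe sets without a gene name, which are reported by their identifiers. The highest control signal belonged to 248043_s_at, with 965.6 and 1448.8 in 35S:AtRALF1, against 2158.4 and 3550.9 in control. It was followed by 256245_at, with 89.8 and 894.9 in 35S:AtRALF1 against 776.6 and 2620.1 in control, and by 259640_at, with 692.4 and 162.5 in 35S:AtRALF1 against 2558.1 and 763.5 in control. Groups were apart for 248043_s_at and 259640_at and overlapped for 256245_at, which was higher in the second repeat. The probe set 252618_at also overlapped, with 702.6 and 49.1 in 35S:AtRALF1 against 2267.4 and 348.6 in control. The largest mean difference of all members, -2.50, was that of 245928_s_at, with 99.2 and 11 in 35S:AtRALF1 against 1321.5 and 58.1 in control. Its difference was -3.54 in the first repeat and -1.46 in the second, and its mean was -0.41 without the first control array and -4.58 without the second. The 10 brightest also held 261569_at, with 68.8 and 556.5 in 35S:AtRALF1 against 164.7 and 1718.3 in control, 267516_at, with 233.6 and 581.6 in 35S:AtRALF1 against 502.8 and 1316.3 in control, and 254687_at, with 388.6 and 166 in 35S:AtRALF1 against 953.9 and 585.6 in control. Of these, 254687_at alone had groups apart. Among the 10 largest falls were also 266353_at, with 352.7 and 59.3 in 35S:AtRALF1 against 784.5 and 329 in control, 245428_at, with 10.2 and 9.9 in 35S:AtRALF1 against 58 and 81.2 in control, and 265091_s_at, with 3.9 and 4.1 in 35S:AtRALF1 against 49.9 and 52.9 in control. The last reads several genes, and its differences were close, -1.73 and -1.78.

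Many bright members differed between the repeats. In 12 of the 29 the second repeat was at least 2-fold lower than the first in both genotypes, and in 6 it was at least 2-fold higher in both. Over the 7081 probe sets with a mean control signal of 100 or more these shares were 2.15% and 1.69%. The members were chosen on the same 4 arrays by a rule that keeps the genotypes at a similar distance in each repeat, which favours a like move in both, so nothing is read from the counts against those shares. The lower ones included GSTU20, AT2G43550, AT1G73600, AT1G13650 and AT3G28220, and the higher ones AT2G27420 and UGT78D1. In every one of the 29 both genotypes moved the same way between repeats, 18 down and 11 up, which the rule favours too. With the repeats not paired, a single array could therefore set the mean of such a gene: that of GSTU20 was -2.37 without the first 35S:AtRALF1 array and -0.12 without the second, and that of AT2G27420 was -2.78 without the first control array and 0.032 without the second. None of the 26 dim members changed 2-fold between repeats in both genotypes, and in 15 the genotypes went opposite ways. On this scale a signal under 18 cannot fall 2-fold, and the dim members' median was 7.05 and 6.2 in 35S:AtRALF1. Their count was thus limited in advance, and nothing is read from it against the bright members. With the genotype in the model, limma called no probe set different between the repeats at an adjusted p under 0.05 (0.00%), with 1830 lower and 1212 higher in the second repeat at an unadjusted p under 0.05. What set the repeats apart in these genes was not tested.

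**Figure D4:**
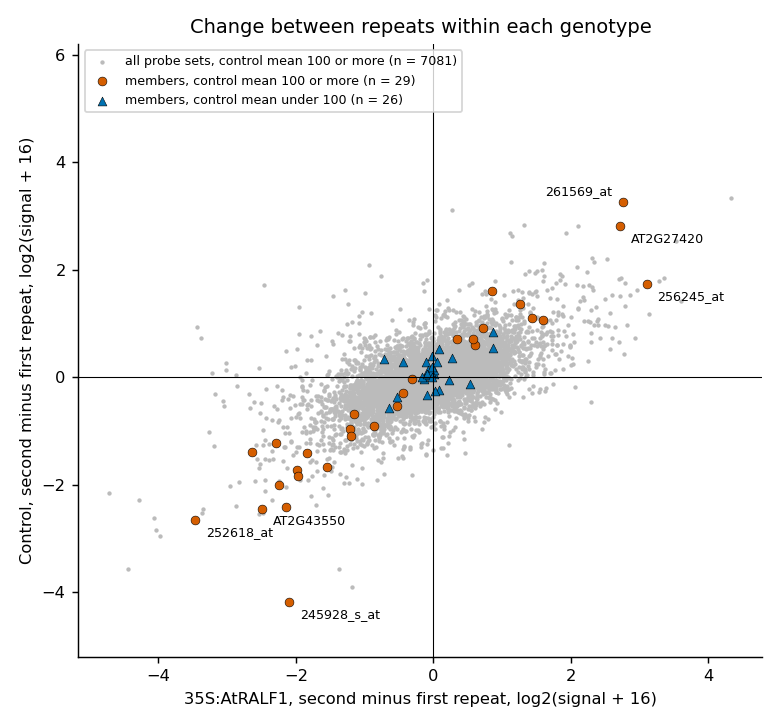
Second minus first repeat on the log2(signal + 16) scale within 35S:AtRALF1 (horizontal axis) and within control (vertical axis), for the 29 bright members (circles), the 26 dim members (triangles) and all 7081 probe sets of like control signal (grey). Bright members stretch along the diagonal, with 261569_at and AT2G27420 high in both genotypes and 252618_at low in both. Dim members lie near 0, and the offset of 16 leaves their low 35S:AtRALF1 signals little room to move.

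The bright members were also those whose groups overlapped. Both 35S:AtRALF1 arrays lay below both control arrays in 41 of the 55 members, against 18.1% of all probe sets, a figure to be read only as a description since membership already fixed the order within each repeat. All 14 members with overlapping groups were bright, and in 15 bright ones the groups were apart. Every 35S:AtRALF1 array was at least 2-fold below every control array in 21 members, of which 20 were dim and 1 was bright. The bright one was 251309_at, with 168.8 and 120.4 in 35S:AtRALF1 against 438.7 and 355 in control. By definition no other probe set could meet that stricter rule (0.0923% of all), and at the low 35S:AtRALF1 signals of the dim genes the offset of 16 keeps arrays alike.

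At the limit of the rule, members and non-members were much alike. Just inside were 244924_at, with differences of -1.003 and -1.16, 250551_at, with -1.01 and -1.22, and 259070_at, with -1.03 and -1.29. Just outside were 255088_at, with -0.99 and -1.21, AT4G02850, with -1.21 and -0.98, and 258497_at, with -1.46 and -0.98. The last was bright, with 145.1 and 711.2 in 35S:AtRALF1 against 426.5 and 1421.1 in control, and its groups overlapped.

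Of the glucosinolate pathway, which makes the mustard oil precursors of the cabbage family, 4 of 29 listed genes were measured and none was a member, with 3 lower on the mean and 1 higher (median -0.71). BCAT4, the aminotransferase that starts methionine chain elongation, came nearest: it had 537.7 and 165.8 in 35S:AtRALF1, against 1210.8 and 279.5 in control, a difference of -1.15 and -0.70. Markers of seedling tissues were present in all arrays, and none of those measured was at 0. The summed signal of 3 of 23 photosynthetic shoot markers ran between 21081.7 and 24907.5 in 35S:AtRALF1 and between 21971.2 and 29243.4 in control. PYK10, the 1 root marker measured of 13, had 5714.6 and 4085 in 35S:AtRALF1 against 7079.2 and 6100.5 in control, and the 2 of 10 root hair markers, both higher on the mean, summed to between 268.1 and 321.5 in 35S:AtRALF1 and between 197.9 and 206.7 in control. The part of tissue composition in the members' values was not tested.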

How the data were processed

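Per array, the authors deposited a linear signal intensity for every probe set, scaled to a common level: leaving out 2% of values at either end, each array had a mean of 125.0. For the software that summarized the probes, its background correction and the genome build, the sources used here give nothing. No further scaling was applied. The 64 control probe sets were removed, signals under 1 were raised to 1, and log2(signal + 16) was taken, which understates the change of dim genes. The number of arrays, 4 in all, limits the precision.

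Genes were named through the platform's probe table, updated with the RefSeq gene table of TAIR10.1, which was used for names and gene order only. It names 1 gene for 13513 probe sets, several for 503, and leaves 8730 unnamed. In lists and families, the brightest probe set stood for a gene. All probe sets were compared with limma 3.58.1 (R 4.3.3, two-sided moderated test with an intensity trend and Benjamini-Hochberg adjustment). The procedure was run on simulated data with independent noise on each array and no shared repeat effect. That run therefore cannot tell how many true changes would be missed on these arrays. The counts show the background and are no test of the members. Values of each array are given for the 10 members of highest control signal, the 10 of largest mean fall and members of functional groups, and 3 probe sets are shown on each side of the limit; other genes were named as list members or neighbours. The members and the gene lists were chosen with earlier results of these data known. Alternatives were offsets of 1 and 64, quantile and cyclic loess normalization, no floor, the brightest 60% of probe sets, limits of 1.5-fold and 3-fold, every pair of arrays, no intensity trend, a repeat term, no genotype term and each array left out. Crossed pairs of arrays, a minimum control signal and families by symbol were added after the data had been seen. Sequence-based comparisons were not made.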

Additional observations from a re-analysis of the deposited data

Results flagged for a closer look

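In 3 listed genes that are not members, the repeats gave opposite differences of 0.5 or more in size between 35S:AtRALF1 and control, each from 1 array per genotype, so the difference between repeats was not tested. COR15A, a cold-induced chloroplast protein, had signals of 57.4 and 16.2 in 35S:AtRALF1 against 290.1 and 4.4 in control, and its difference was higher in the second repeat by 2.72 on the log2 scale. LTI30, a dehydrin, had 350.2 and 111.4 in 35S:AtRALF1 against 205 and 224.1 in control, a second repeat minus first of -1.64. The plastid gene rps4, for a small ribosomal subunit protein, had 106.6 and 710.4 in 35S:AtRALF1 against 302.4 and 440.8 in control, a second repeat minus first of 2.05.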

How the results depend on the processing

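The number of genes lowered in both repeats depended on the offset, the limit and the pairing of arrays more than on the normalization. Of the 55 members, 47 of 50 selected were kept after quantile and 49 of 50 after cyclic loess normalization, with all 29 bright members in each, and omitting the floor kept all 55. An offset of 1 gave 497 and one of 64 gave 14 (all bright members); the 60% with the highest signal gave 35 (29 bright and 6 dim members). A limit of 1.5-fold gave 478 and one of 3-fold gave 5, namely AT3G28220, AT3G28270, 252618_at, 259640_at and 265091_s_at. Requiring every 35S:AtRALF1 array to be 2-fold below every control array gave 21, crossing the repeats, added after the data had been seen, gave 36 with 21 of them members, and with 1 repeat left out the count ran between 521 and 752. The members' median difference, -1.31, was -2.07 with an offset of 1, -0.89 with one of 64, and between -1.37 and -1.19 with 1 array left out. That median hides larger moves: for bright members it ran between -1.75 and -1.01 and for dim ones between -1.28 and -1.19, between 40 and 45 of the 55 members stayed 2-fold lower on the mean (19 with an offset of 64), and 25 members moved by over 1.5 times, 23 of them bright and the dim ones being AT2G20560 and AT5G48570. A mean over unpaired arrays changed sign in 4 of 440 values, in 3 bright members whose repeats lay far apart: AT2G27420 without the second control array (0.032), 261569_at without the first 35S:AtRALF1 array (0.032) or the second control array (0.29), and AT2G43550 without the second 35S:AtRALF1 array (0.015). The lowest of their values with an array left out were -2.78, -2.98 and -2.48, in the same order of genes. For all probe sets, limma called 1 (higher in 35S:AtRALF1) with the replicate block and 1 with the 60% of highest signal, against 0 otherwise (with the block, 914 lower and 734 higher at an unadjusted p under 0.05), and no alternative for the contrast of repeats gave a call; each array left out gave between 0 and 0. Deviations of same-numbered arrays correlated at 0.392 over probe sets, but with 2 pairs the numbers may be only a label. Low signals, under the 40th percentile in 35S:AtRALF1 in 25 dim members, limit what the fold of a dim gene can say.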

Other observations

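Among listed genes that are no members, the glucosinolate genes were mixed. Both further ones with a mean fall had each 35S:AtRALF1 array below each control array, as did 18.1% of all probe sets. UGT74B1, which adds glucose in glucosinolate synthesis, had signals of 226.5 and 163.7 in 35S:AtRALF1 against 290.1 and 305.6 in control (mean difference -0.59). AOP1, of the family that modifies glucosinolate side chains, had 66.4 and 30.9 in 35S:AtRALF1 against 109.9 and 80.9 in control (-0.83). AOP3 had its groups apart the other way, with 21.4 and 21.3 in 35S:AtRALF1 against 15.8 and 19.3 in control (0.16). In BCAT4 the groups overlapped. GRX480, a glutaredoxin of the salicylate response and the 1 gene measured of 18 on that list, was on the higher side, with 26.7 and 46.2 in 35S:AtRALF1 against 23.2 and 23.8 in control (0.38). GSTU16 showed a fall of nearly the same size in the repeats without meeting the rule, with 74.3 and 78.3 in 35S:AtRALF1 against 140.3 and 151.5 in control (-0.79 and -0.83).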
